A study of Mus musculus with 4 samples.

Results

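The genes described here carry out antigen presentation by the major histocompatibility complex (MHC), in tumour-infiltrating myeloid cells of mice. They are the 35 listed members of the class I and class II pathways, 21 of class I and 14 of class II, chosen by name. A member was kept where its normalised read count was at least 10 in 2 or more of the 4 libraries. That left 32 members, 18 of class I and 14 of class II, among 12463 tested genes of 23420 in the table. The 3 members that were not kept, H2-Q6, H2-Q7 and H2-T22, are described with the class I genes.

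The RNA came from tumours of the skin (orthotopic cutaneous squamous cell carcinomas, cSCC) in FVB/N mice, out of which cells positive for both CD11b, found on myeloid cells, and CD200R1, which binds CD200, were sorted. The WT group is 2 libraries from wild-type, CD200-positive tumours. The EpiKO group is 2 libraries from CD200-negative tumours of the genotype K14Cre;CD200fl/fl. There the keratin 14 promoter drives Cre recombinase in keratinocytes, so the deletion is aimed at the epithelium and not at the myeloid cells that were measured. Every library passed the same CD11b and CD200R1 gate. The replicates of a group are numbered here by the order of the deposited columns, since the labels give no such numbers. The labels give no age, sex, litter or pooling of animals, so p-values measure only the spread between these libraries, which may be technical.

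Class II molecules (the H2-A and H2-E dimers) show peptides from engulfed and endosomal proteins to CD4 T cells. The invariant chain holds the groove of a new dimer until H2-DM exchanges its last fragment for a peptide, and H2-O restrains H2-DM. Class I molecules show peptides cut in the cytosol to CD8 T cells: the proteasome cuts them, TAP carries them into the endoplasmic reticulum, ERAP1 trims them, and tapasin loads them on a heavy chain paired with beta-2-microglobulin. In macrophages and dendritic cells, CIITA switches on the class II genes and NLRC5 the class I genes, and both act through a common set of promoter-bound proteins that includes RFX and NF-Y.

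Depth lay between 15884132 and 21244158 reads assigned to genes per library, and 1 read was worth a value of between 0.841 and 1.16. Cd200, the targeted gene, was at 92.7 and 59.7 in WT against 17.2 and 15.1 in EpiKO in these sorted cells (log2 fold change -2.14, limma adjusted p = 0.0794). On the reads recovered from the values, DESeq2 called it at an adjusted p of 0.00323, whereas edgeR gave 0.0800. RNA of both gate markers was found: Itgam, which encodes CD11b, was at 26151 and 26738 in WT against 40692 and 30075 in EpiKO. Cd200r1 was at 318 and 293 against 1101 and 612, so the gate gene itself was higher in both EpiKO libraries. The macrophage growth factor receptor gene Csf1r was at 66968 and 65516 against 45316 and 70480.3. Of 10 gate and macrophage markers limma called 0 and DESeq2 2 at an adjusted p under 0.05, beside 0.947% and 6.85% of all tested genes. Keratinocyte transcripts were high in WT replicate 1 alone. The 10 keratinocyte markers summed to 5278 and 80.7 in WT against 65.7 and 59.5 in EpiKO, so the log2 fold changes of some members are also given without that library. Those of genes outside the member list rest on all 4 libraries. In bulk samples such as these, fewer cells of a type and less RNA per cell cannot be told apart.

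No member passed the test of EpiKO against WT. Across all genes, limma with Benjamini-Hochberg adjustment called 0.947% of the 12463 tested genes at an adjusted p under 0.05 (0.417% higher and 0.53% lower in EpiKO), and among the members it called 0 of 14 class II genes and 0 of 18 class I genes. At an unadjusted p under 0.05 by limma there were 1 class II and 5 class I genes, beside 15.6% of all tested genes. With edgeR on the recovered reads 0 members were called, beside 0.963% of all genes, and with DESeq2 0 class II and 2 class I members, H2-K1 and H2-D1, beside 6.85% of all genes. The median log2 fold change was -0.14 over the class II members and -0.053 over the class I members, with -0.0021 over all tested genes. It was negative for 8 of 14 class II and 10 of 18 class I members, beside 50.3% of all tested genes. Although limma called neither class, they differed in how closely the libraries of 1 group lay together. The median standard error of the log2 fold change was 0.442 in class II, 0.124 in class I and 0.168 over all tested genes.

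**Figure D1:**
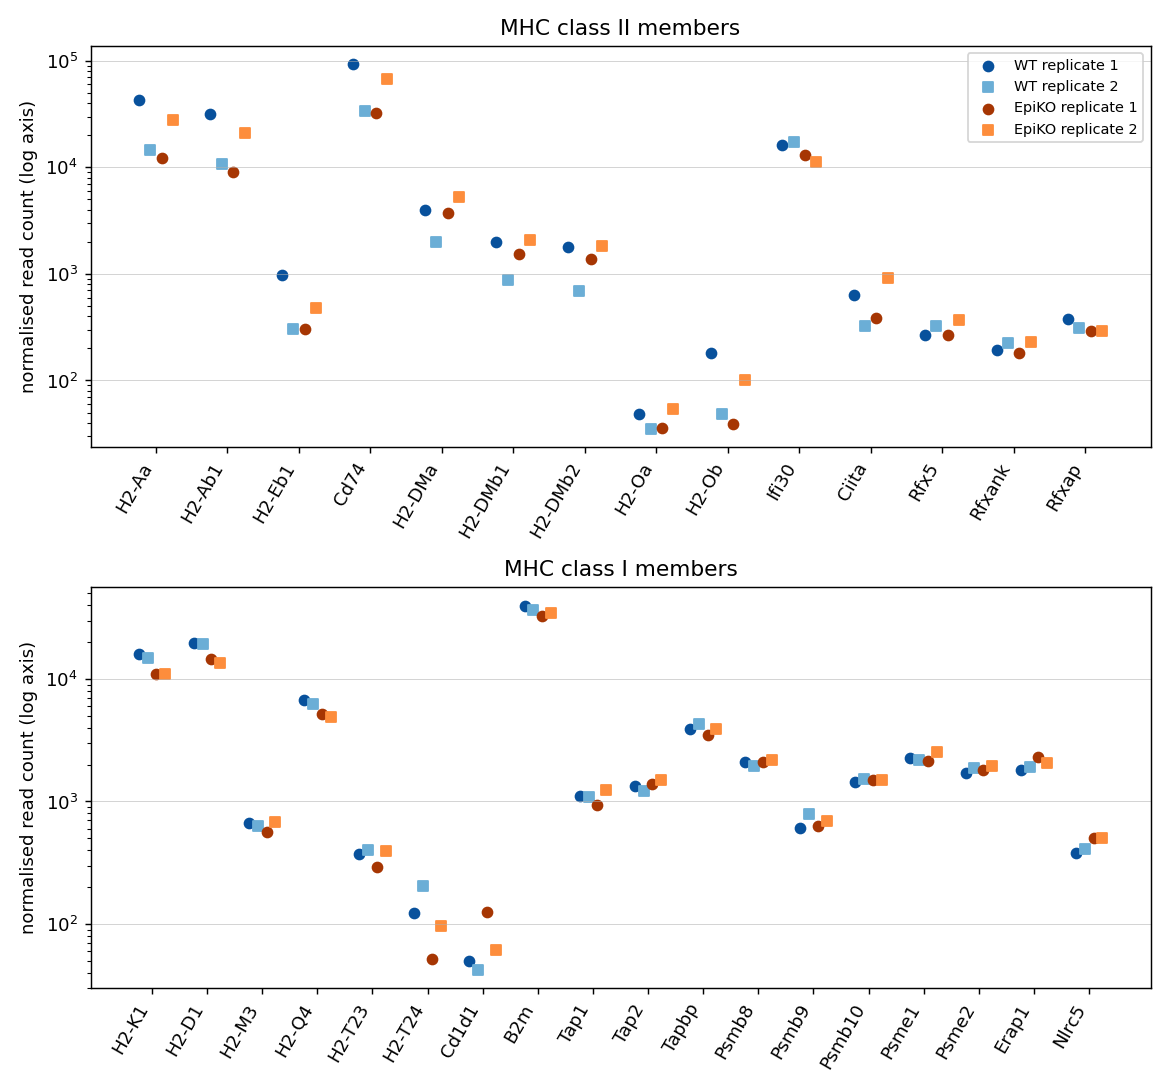
Normalised read count (log axis) of each kept member in the 4 libraries, class II above and class I below. The points are single libraries. Cd74 spans 32408 to 93086 across the libraries while B2m spans 32550.2 to 39778.

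The transcripts of H2-A and the invariant chain were abundant, and they differed more within the groups than between them. Cd74, the gene of the invariant chain, had values of 93086 and 34059 in WT against 32408 and 68052 in EpiKO. H2-Aa, the alpha chain of H2-A, was at 43251 and 14452 in WT against 12143 and 27772 in EpiKO, and H2-Ab1, its beta chain, at 31925 and 10707 in WT against 9049 and 20892 in EpiKO. In each of these genes WT replicate 1 was highest, EpiKO replicate 2 was second, and the other 2 libraries lay close together, so the groups overlapped. The log2 fold changes were -0.26 for Cd74 (SE 0.589, 95% interval -1.78 to 1.26, limma adjusted p = 0.887), -0.45 for H2-Aa (SE 0.642) and -0.43 for H2-Ab1 (SE 0.642). The interval of Cd74 holds both a lower and a higher level in EpiKO, so no direction was shown. Without WT replicate 1 the log2 fold changes of Cd74, H2-Aa and H2-Ab1 were 0.46, 0.35 and 0.36, and without EpiKO replicate 1 they were 0.27, 0.15 and 0.18, so either of these libraries turned the sign.

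H2-Eb1, the beta chain of H2-E, followed the same order at 970.1 and 307 in WT against 303 and 475 in EpiKO, with a log2 fold change of -0.52 (SE 0.578) that was 0.30 without WT replicate 1. Its partner chain stands in the table as the pseudogene H2-Ea-ps, which was at 1940.3 and 623 in WT against 494 and 942 in EpiKO. No protein was measured, so these values do not show that an H2-E dimer was made. Per kilobase of exon, a scale that allows genes to be compared, the mean level over the 4 libraries was 33890.1 for Cd74, 7065 for H2-Ab1, 6426 for H2-Aa and 264 for H2-Eb1. On this scale H2-Ab1 was somewhat above H2-Aa in each of the 4 libraries, at 12432 against 11388 in WT replicate 1 and 3524 against 3197 in EpiKO replicate 1, and H2-Eb1 was below both. FVB/N mice carry another H2 haplotype than the C57BL/6 strain of the reference, and the effect of this on the levels of H2 genes was not tested. The ratio of the H2-Aa to the H2-Ab1 value hardly moved, at 1.35 and 1.35 in WT against 1.34 and 1.33 in EpiKO, although the genes themselves differed 2.99-fold and 2.98-fold within WT. Of all reads of a library, the 3 chains and Cd74 took 0.919% and 0.333% in WT against 0.288% and 0.642% in EpiKO.

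The H2-DM genes, which load the class II groove, had positive log2 fold changes, and none passed the test. H2-DMa, the alpha chain of H2-DM, was at 4008 and 1996 in WT against 3704 and 5226 in EpiKO, with a log2 fold change of 0.64 (SE 0.371, limma adjusted p = 0.508). The beta chain genes H2-DMb1 and H2-DMb2 were at 2011 and 876 against 1525 and 2089.5 and at 1787 and 690.1 against 1384 and 1820.2, with log2 fold changes of 0.43 (SE 0.419) and 0.51 (SE 0.465). In all 3 genes WT replicate 2 stood lowest and the groups overlapped. The beta chain genes share sequence: 22.7% of the 50-base words of H2-DMb1 transcripts occur in another gene and 24.8% of those of H2-DMb2, so the split of reads between them is uncertain. Without WT replicate 2 the log2 fold change of H2-DMa was 0.13, and those of H2-DMb1 and H2-DMb2 turned to -0.17 and -0.17.

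H2-O, the inhibitor of H2-DM, was scarce. H2-Oa, its alpha chain, was at 48.7 and 35.3 in WT against 35.5 and 53.9 in EpiKO, and H2-Ob, its beta chain, at 179.7 and 48.8 in WT against 38.8 and 102 in EpiKO, with log2 fold changes of 0.076 (SE 0.369) and -0.57 (SE 0.770). H2-Oa had 42 and 42 reads in WT against 33 and 57 in EpiKO, so its difference within WT came from the scaling of the libraries alone. The sign of H2-Oa was negative without either EpiKO replicate 2 (-0.22) or WT replicate 2 (-0.15), and that of H2-Ob positive without WT replicate 1 (0.36) or EpiKO replicate 1 (0.12). Of the kept members H2-Ob had the largest ratio between libraries of a group, 3.68-fold within WT and 2.63-fold within EpiKO.

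Ratios within a library do not move with the scaling of that library, and H2-DM was compared in this way with its inhibitor and with the invariant chain. Of H2-Oa to H2-DMa the ratio was 0.0121 and 0.0177 in WT against 0.00959 and 0.0103 in EpiKO, and of H2-Ob to H2-DMb1 it was 0.0893 and 0.0557 in WT against 0.0254 and 0.0488 in EpiKO. For both pairs the EpiKO libraries lay below the WT libraries. The ratio of H2-DMa to Cd74, chosen after the values were seen, was 0.0431 and 0.0586 in WT against 0.114 and 0.0768 in EpiKO, and those of H2-DMb1 and H2-DMb2 to Cd74 were 0.0216 and 0.0257 in WT against 0.0471 and 0.0307 in EpiKO, and 0.0192 and 0.0203 in WT against 0.0427 and 0.0267 in EpiKO. Each of these 3 ratios was higher in both EpiKO libraries than in either WT library, by 1.86-fold, 1.61-fold and 1.71-fold on the geometric mean. No test was made of the ratios, and with 2 libraries a group the smallest p of an exact permutation test is 0.333. For single genes the groups did not overlap in 47.1% of all tested genes.

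**Figure D2:**
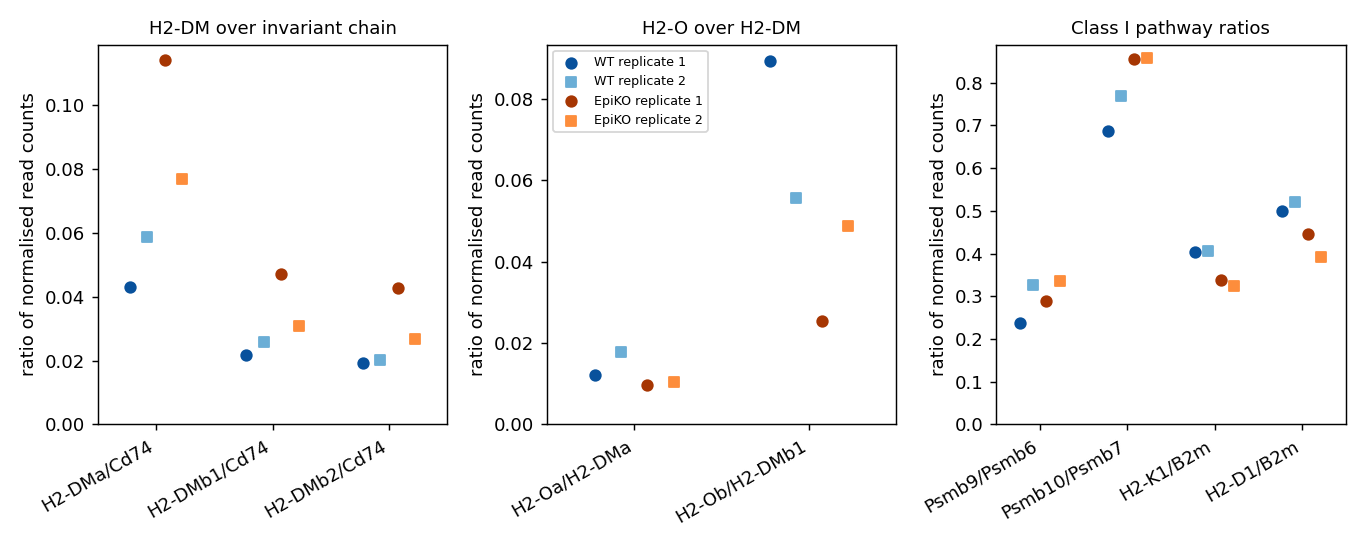
Ratios of normalised read counts within each library, for H2-DM chains over the invariant chain gene Cd74, H2-O chains over H2-DM chains, and class I pathway pairs. Each point is 1 library and every axis starts at 0. H2-DMa over Cd74 is 0.0431 and 0.0586 in WT and 0.114 and 0.0768 in EpiKO.

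Ciita, the master switch of class II transcription, was at 628 and 324 in WT against 389 and 919.6 in EpiKO, with a log2 fold change of 0.41 (SE 0.510, limma adjusted p = 0.784). EpiKO replicate 2 was highest and WT replicate 1 second, so the groups overlapped. The sign was negative without EpiKO replicate 2 (-0.21) or WT replicate 2 (-0.071). The values of Cd74 for each unit of Ciita, a ratio chosen after the values were seen, were 148 and 105 in WT against 83.4 and 74.0 in EpiKO, lower in both EpiKO libraries. Rfx5, Rfxank and Rfxap encode the 3 subunits of RFX, which binds class I and class II promoters alike. They were at 269 and 323 against 269 and 372, at 192 and 226 against 179.8 and 228 and at 381 and 312 against 292 and 290.1, with log2 fold changes of 0.10, -0.043 and -0.24. None of the RFX genes differed by 1.5-fold between the libraries of a group, and the signs of Rfx5 and Rfxank turned to -0.13 and 0.13 without EpiKO replicate 2 and EpiKO replicate 1.

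Ifi30 encodes the thiol reductase GILT, which opens disulfide bonds of antigens in the endosome. It stood at 16813 ± 821 in WT and 12232 ± 1316 in EpiKO (SD, n = 2), with a log2 fold change of -0.46 (SE 0.137, limma adjusted p = 0.204). Both EpiKO libraries, at 13163 and 11301, were below both WT libraries, at 16233 and 17394. Among the class II members only Ifi30 and Rfxap had groups that did not overlap, both with EpiKO below WT, beside 23.8% of all tested genes in that direction.

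The chains of H2-A, H2-E, H2-DM and H2-O, Cd74 and Ciita were all higher in WT replicate 1 than in WT replicate 2, and in EpiKO replicate 2 than in EpiKO replicate 1. WT replicate 1 exceeded WT replicate 2 by 3.16-fold for H2-Eb1, 2.99-fold for H2-Aa, 2.98-fold for H2-Ab1, 2.73-fold for Cd74 and 1.94-fold for Ciita. EpiKO replicate 2 exceeded EpiKO replicate 1 by 1.57-fold, 2.29-fold, 2.31-fold, 2.10-fold and 2.37-fold for the same genes. In 6 of 14 class II members and 0 of 18 class I members both ratios were at least 1.5, beside 3.3% of all tested genes. Of the class I members 16 of 18 stayed within 1.5-fold in both groups, as did 4 of 14 class II members and 76.2% of all tested genes. The ratio of 1.5 and the direction of both ratios were chosen after the values were seen. That direction is the one in which Cd74, H2-Aa and H2-Ab1 were high, so the class II count was partly set by the choice. These counts describe 4 libraries.

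**Figure D3:**
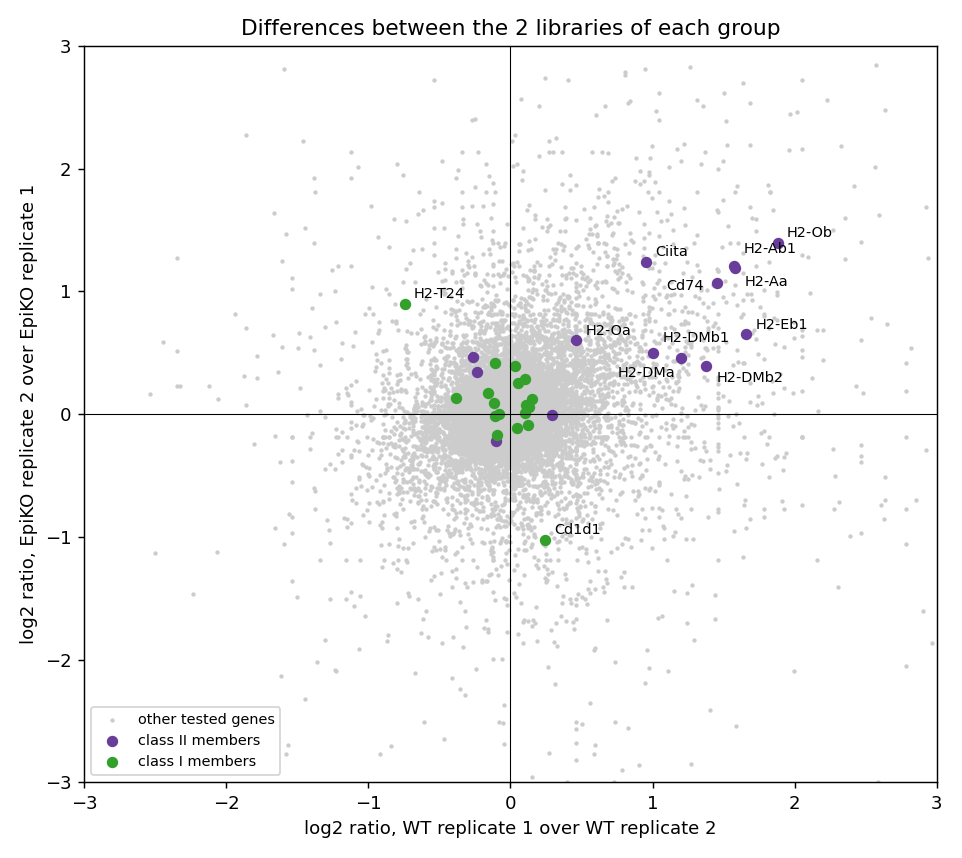
Log2 ratio of WT replicate 1 over replicate 2 (horizontal) and of EpiKO replicate 2 over replicate 1 (vertical) for tested genes in grey, class II members in purple and class I members in green. H2-Ob, H2-Aa, H2-Ab1, Cd74, H2-Eb1 and Ciita lie in the upper right, and 16 of 18 class I members within 1.5-fold of the origin on both axes. The plot leaves out 62 genes with a value of 0 in a library and 82 beyond 3 on an axis.

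Neighbouring genes of the 2 classes differed in this split. Within the class II region of chromosome 17 of mm10, from H2-Oa at 34092340 to the end of H2-Eb1 at 34316674 (GENCODE M21), lie 8 class II members with 4 class I pathway genes among them. In order these are H2-Oa, H2-DMa, H2-DMb2, H2-DMb1, Psmb9, Tap1, Psmb8, Tap2, H2-Ob, H2-Ab1, H2-Aa and H2-Eb1. WT replicate 1 over replicate 2 was between 1.38 and 3.68 for the 8 class II genes and between 0.767 and 1.11 for Psmb9, Tap1, Psmb8 and Tap2. EpiKO replicate 2 over replicate 1 was between 1.31 and 2.63 for the former and between 1.04 and 1.31 for the latter. Tap2 from 34203527 to 34216321 and H2-Ob from 34238903 to 34254414 are next to each other in that list, and WT replicate 1 exceeded replicate 2 by 1.11-fold and 3.68-fold.

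The X and Y boxes, where RFX and NF-Y bind, are the known shared elements of class II promoters, and the stretches that hold them are shown for the class II members in which they were found. RefSeq promoter windows on GRCm38.p6, which reach from 250 bases before to 50 after a start site, were found for 27 of the 35 members, 10 of class II and 17 of class I. The letters searched, on both strands, were CNNNNAAC for the core of the X box, then 15 to 30 bases, then TGATTGG for the Y box, and they were chosen with the sequences in view. They were found in 0.356% of 32851 windows. Among the members the 2 words at this spacing were found in H2-Aa, H2-Eb1, H2-DMb1, H2-DMb2, H2-Oa and H2-Ob and in no class I window. Without the rule on spacing and order, both words were also in the class I windows of H2-K1, H2-D1, H2-Q4, H2-Q6, H2-Q7, H2-T22, H2-T23, Tap1 and Psmb9. The search therefore does not show that class I promoters lack these boxes. Over all windows CNNNNAAC alone was in 81.6% and TGATTGG alone in 7.82%. H2-DMa has a window without this match, although WT replicate 1 exceeded replicate 2 by 2.01-fold, and H2-Ab1, Cd74 and Ciita are not in the table of windows. The stretches, from the reference strain C57BL/6, run 5′ to 3′ along each gene, upstream of the RefSeq start, and the capitals mark the X box core and the Y box. They lie at chr17:34287861-34287913 (minus strand), chr17:34305767-34305818, chr17:34153088-34153140, chr17:34145117-34145169, chr17:34092294-34092346 and chr17:34238809-34238858 (all plus strand).
H2-Aa: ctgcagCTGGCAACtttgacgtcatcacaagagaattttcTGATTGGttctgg
H2-Eb1: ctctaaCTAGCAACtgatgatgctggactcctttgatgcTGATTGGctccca
H2-DMb1: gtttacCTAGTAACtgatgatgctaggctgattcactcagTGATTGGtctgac
H2-DMb2: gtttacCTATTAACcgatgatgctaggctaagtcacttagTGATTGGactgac
H2-Oa: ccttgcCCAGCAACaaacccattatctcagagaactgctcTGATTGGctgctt
H2-Ob: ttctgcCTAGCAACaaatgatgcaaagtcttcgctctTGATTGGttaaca
The 2 marked words stand 26 bases apart in H2-Aa, H2-DMb1, H2-DMb2 and H2-Oa, 25 in H2-Eb1 and 23 in H2-Ob. A match describes the letters and is not a measured binding site. H2-Oa, which has both words, had the smallest difference of these 6 genes within WT, at 1.38-fold on 42 reads in each library.

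Between libraries of a group, some dendritic cell markers moved with the class II genes and most monocyte markers moved against them, and their part in the result was not tested. Of 10 tested dendritic cell markers, from a list of 14, 5 had both within-group ratios at or above 1.5, beside 3.3% of all tested genes. The list summed to 3651 and 1791 in WT against 1449 and 2972 in EpiKO. Itgax, which encodes the integrin CD11c, was at 1545 and 731 in WT against 951 and 1944 in EpiKO, and Batf3, a transcription factor of cross-presenting dendritic cells, at 109 and 37.8 in WT against 19.4 and 88.8 in EpiKO. Xcr1 and Clec9a, which define the cross-presenting subset, had 3 or fewer reads in every library, and Zbtb46, the factor of classical dendritic cells, was at 26.7 and 19.3 in WT against 22.6 and 23.6 in EpiKO. The Langerhans cell lectin gene Cd207 was at 1201 and 590.1 in WT against 23.7 and 23.6 in EpiKO, and it did not rise again in EpiKO replicate 2. Cd207 was the 1 gene of this list that limma called (log2 fold change -5.10, limma adjusted p = 0.0329), beside 0.947% of all tested genes. Most monocyte markers ran the other way: 4 of 6 had both ratios at or below 1 over 1.5, beside 1.16% of all tested genes, and the list summed to 13229.6 and 21926 in WT against 65103 and 15586 in EpiKO. Over this list EpiKO replicate 2 over replicate 1 ran from 0.0476 to 2.42, so not every monocyte marker was lower in EpiKO replicate 2. Ly6c2 was at 147 and 228 in WT against 251 and 72.8 in EpiKO and the chemokine receptor gene Ccr2 at 10253 and 17563 in WT against 18506 and 11127 in EpiKO. Most of the monocyte sum in EpiKO replicate 1 was the chitinase-like gene Chil3, listed as Chi3l3, at 39879.

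The 6 B cell genes found summed to 606 and 316 in WT against 155 and 609 in EpiKO, and the 7 T and NK cell genes to 1907 and 624 in WT against 178 and 1002 in EpiKO. Cd4 was at 1755 and 575 in WT against 100.1 and 893 in EpiKO, and the lectin gene Cd22 at 524 and 241 in WT against 135 and 544 in EpiKO. Within each group both differed in the same direction as Cd74 and the class II chains. The T cell receptor complex genes Cd3e, Cd3d and Cd3g and the co-receptor gene Cd8a had 3 or fewer reads in every library. So did Cd79a and Pax5, which define B cells. Fibroblast markers, 6 of 6 tested, summed to 31236 and 20844 in WT against 17940.5 and 26749 in EpiKO. Of these 6 only 1, Lum, had both within-group ratios at or above 1.5, beside 3.3% of all tested genes. In WT replicate 1 and EpiKO replicate 2 Lum exceeded the other library of its group by 1.77-fold and 2.20-fold. Neutrophil markers summed to 1311 and 2523 in WT against 750.3 and 1530.1 in EpiKO, mast cell and basophil markers to at most 252 in WT and 95.8 in EpiKO, and endothelial markers to 227 and 179 in WT against 225 and 231 in EpiKO. Macrophage markers, 10 of 10 tested, summed to 439946 and 363049 in WT against 566111 and 483652 in EpiKO and were lowest in WT replicate 2.

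**Figure D4:**
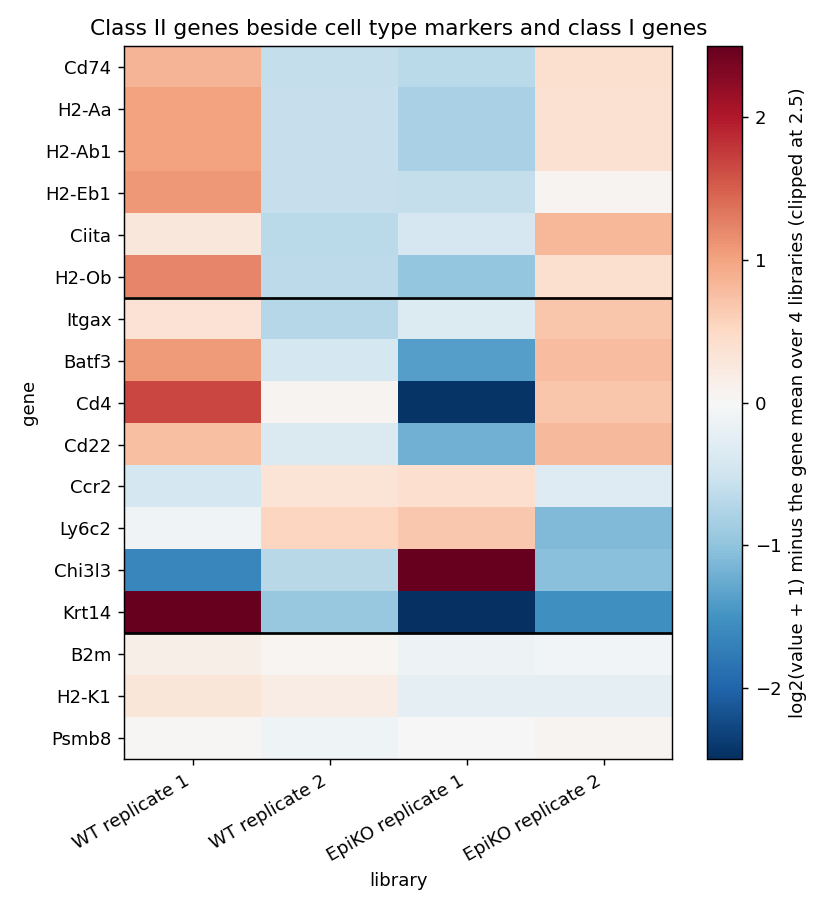
Centred log2(value + 1) of 6 class II genes, 8 markers of other cell types and 3 class I genes in the 4 libraries, with genes chosen after their values were seen. Red is above and blue below the mean of the gene over the libraries. Itgax, Batf3, Cd4 and Cd22 are high with the class II genes in WT replicate 1 and EpiKO replicate 2, Ly6c2 and Ccr2 are lower there, and B2m, H2-K1 and Psmb8 stay near 0.

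The classical class I heavy chains were lower in EpiKO by about the same amount, and neither passed the threshold by limma. H2-K1, one of the 2 main presenting heavy chains, stood at 15524 ± 775 in WT and 11034 ± 47.8 in EpiKO (SD, n = 2), 28.9% lower in the mean. Its libraries were at 16072 and 14976 in WT against 11000.1 and 11068 in EpiKO. H2-D1, the other, stood at 19519 ± 437 in WT and 13981 ± 791 in EpiKO (SD, n = 2), with libraries at 19828 and 19210.5 in WT against 14541 and 13422 in EpiKO. In both genes the 2 libraries of a group nearly coincided and every EpiKO library was below every WT library, as in 23.8% of all tested genes. The log2 fold changes were -0.49 (SE 0.118, 95% interval -0.79 to -0.19, limma adjusted p = 0.142) and -0.48 (SE 0.123, 95% interval -0.79 to -0.17, limma adjusted p = 0.158). The DESeq2 fit called both lower, at adjusted p of 0.00894 and 0.0126, beside 3.12% of all genes called lower, whereas edgeR gave 0.154 and 0.171. With any 1 library left out, the log2 fold change stayed between -0.54 and -0.44 for H2-K1 and between -0.54 and -0.42 for H2-D1, and without WT replicate 1 they were -0.44 and -0.46.

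B2m, the light chain that every class I heavy chain needs, was at 39778 and 36882 in WT against 32550.2 and 34263 in EpiKO, with a log2 fold change of -0.20 (SE 0.135). Its mean level per kilobase of exon was 41707 over the 4 libraries, against 33890.1 for Cd74, 6495 for H2-D1 and 4519.7 for H2-K1, with the same limit from the haplotype for the H2 genes. The order of B2m and Cd74 turned with the library: Cd74 was the higher in WT replicate 1, at 55441 against 46254, and in EpiKO replicate 2, at 40532 against 39841, and B2m in the other 2 libraries. The ratio of H2-K1 to B2m, chosen after the values were seen, was 0.404 and 0.406 in WT against 0.338 and 0.323 in EpiKO, and that of H2-D1 to B2m was 0.498 and 0.521 in WT against 0.447 and 0.392 in EpiKO. Both ratios were lower in both EpiKO libraries, so the heavy chain values were lower relative to the light chain as well as in the scaled table.

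**Figure D5:**
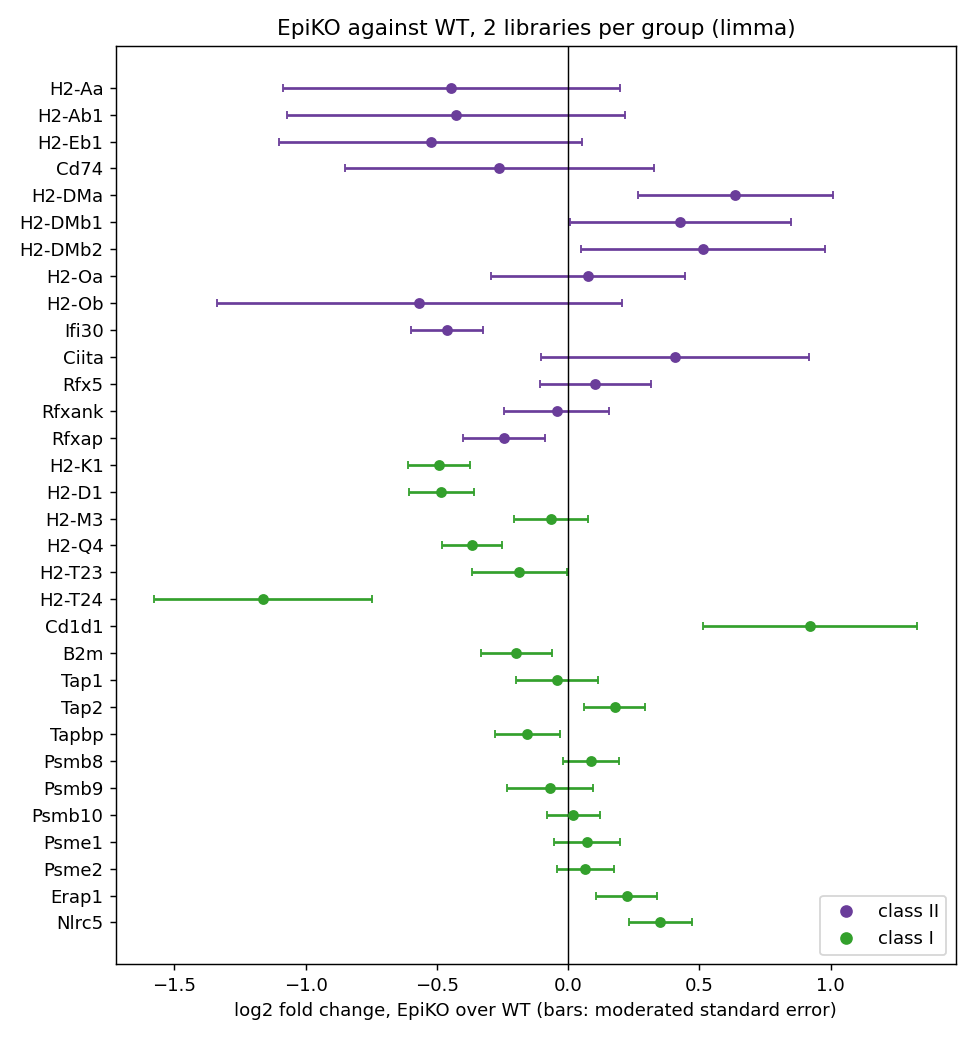
Log2 fold change of EpiKO over WT for the 32 kept members (limma), class II in purple and class I in green, with bars of 1 moderated standard error. The bars of H2-K1, H2-D1 and H2-Q4 lie below 0 and are short, while those of H2-Aa, H2-Ab1 and Cd74 span 0. The classes are not split in this way throughout. In class II the bars of Ifi30 and Rfxap lie below 0 and that of H2-DMa above it, and in class I that of Nlrc5 lies above 0.

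H2-Q4, a heavy chain of the Qa region, sat with the classical genes at 6769 and 6208 in WT against 5195 and 4872 in EpiKO, with a log2 fold change of -0.37 (SE 0.115, limma adjusted p = 0.228). Of its 50-base words 21.8% occur in another gene, against 9.63% for H2-K1 and 12.8% for H2-D1, so its level is the less certain.

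The promoters of H2-K1, H2-D1 and H2-Q4 were searched on both strands for GGGGATTNCCC, letters of the NF-kappaB site of class I promoters, and for AGTTTCNCTTCT, letters of their interferon response element, chosen with the sequences in view. Both were found in all 3 genes, beside 0.0761% and 0.0791% of the 32851 windows. The stretches, with capitals on both words, lie at chr17:34000422-34000464 (minus strand), chr17:35262917-35262959 and chr17:35379437-35379479 (both plus strand), and they are shown because the 3 genes had similar fold changes.
H2-K1: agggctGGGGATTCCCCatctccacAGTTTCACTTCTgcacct
H2-D1: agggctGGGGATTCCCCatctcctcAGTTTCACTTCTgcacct
H2-Q4: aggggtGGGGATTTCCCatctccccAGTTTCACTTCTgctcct
The marked words stand 8 bases apart in each, and the latter ends 81 bases before the RefSeq start in H2-K1, 141 in H2-D1 and 144 in H2-Q4. No other member with reads and a window held both words. H2-Q6 held both and H2-Q7 the latter, and neither had a read.

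The remaining non-classical heavy chains did not move as one. H2-T24 was at 123 and 206 in WT against 51.7 and 96.4 in EpiKO, with a log2 fold change of -1.16 (SE 0.415, limma adjusted p = 0.279), and the groups did not overlap. H2-T23, which encodes Qa-1, the ligand of inhibitory NK cell receptors, was at 372 and 402 in WT against 294 and 393 in EpiKO, and H2-M3, which presents formylated bacterial peptides, at 672 and 626 in WT against 562 and 684 in EpiKO. Their log2 fold changes were -0.19 and -0.065, the groups overlapped in both, and without EpiKO replicate 1 the values were 0.024 and 0.077. Cd1d1, a class I-like molecule that shows lipids to NKT cells, was the one heavy chain among the kept members with both EpiKO libraries above both WT libraries, at 49.8 and 42.0 in WT against 125 and 61.4 in EpiKO (log2 fold change 0.92, SE 0.407, limma adjusted p = 0.369). Without EpiKO replicate 1 its log2 fold change was 0.42, and 19.1% of its 50-base words occur in another gene, Cd1d2, which had no read.

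H2-Q6, H2-Q7 and H2-T22 had 0 reads in all 4 libraries, which allows up to 3 reads per library, or a value of 2.52 to 3.48. Other genes have 32.0%, 26.4% and 34.5% of their 50-base words, and among the kept members the highest share was 28.3% in Psme2. The FVB/N haplotype differs from that of the reference, and how reads with several alignments were treated is not given in the sources used here. An absence of these transcripts from the cells is therefore not shown. In a list of 21 other heavy chain genes that are not members, 10 were tested and 0 were called by limma, edgeR or DESeq2. The shares over all tested genes were 0.947%, 0.963% and 6.85%. At an unadjusted p under 0.05 by limma there were 2, beside 15.6% of all tested genes. Mr1, which shows vitamin metabolites to MAIT cells, was at 339.6 and 263 in WT against 437 and 506 in EpiKO (log2 fold change 0.65, limma adjusted p = 0.181). H2-Q5 and H2-Bl were low, at 23.2 and 28.6 against 10.8 and 11.3 and at 32.5 and 26.9 against 8.61 and 19.8, and H2-M2 was at 906 in WT replicate 1, the library with the keratinocyte transcripts, and at 62.2, 53.8 and 48.2 elsewhere.

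The genes that cut, carry and load class I peptides had log2 fold changes near 0. Psmb8, Psmb9 and Psmb10 encode the catalytic subunits of the immunoproteasome, and were at 2118 and 1938 against 2108 and 2196, at 604 and 788 against 627 and 688 and at 1436 and 1516 against 1493 and 1498 (WT against EpiKO). None of them passed the test. Their log2 fold changes were 0.087 (95% interval -0.19 to 0.36), -0.071 (-0.49 to 0.35) and 0.020 (-0.24 to 0.28) by limma, and in all 3 genes the groups overlapped. The intervals leave out a change of 1.5-fold in either direction, which is 0.585 on the log2 scale. Psme1 and Psme2, the 2 subunits of the PA28 activator cap, were at 2247 and 2169.5 against 2128 and 2529.9 and at 1718 and 1862 against 1813 and 1932, and had log2 fold changes of 0.072 and 0.065. The signs of Psmb9, Psmb10 and Psme1 turned when 1 library was left out: to 0.12 without WT replicate 2, to -0.019 without WT replicate 1 and to -0.053 without EpiKO replicate 2.

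Each immunoproteasome subunit replaces a constitutive one, and the ratio of the pair was taken between their RNA values, not scaled for exon length. The exchange of the proteins themselves was not measured. Psmb8 over Psmb5 was 5.69 and 5.25 in WT against 5.15 and 7.11 in EpiKO, and Psmb9 over Psmb6 was 0.236 and 0.326 in WT against 0.289 and 0.335 in EpiKO, with overlapping groups in both. Psmb10 over Psmb7 was 0.688 and 0.770 in WT against 0.856 and 0.858 in EpiKO, higher in both EpiKO libraries by 1.18-fold on the geometric mean. Of this pair, Psmb7 had EpiKO below WT, at 2087 and 1969 in WT against 1744 and 1746 in EpiKO, while Psmb10 had a log2 fold change of 0.020. Of 14 constitutive core subunits 0 were called by limma, edgeR or DESeq2, beside 0.947%, 0.963% and 6.85% of all tested genes. An unadjusted p under 0.05 by limma was found in 0 of them, beside 15.6% of all tested genes. Their median log2 fold change was -0.054.

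Tap1 and Tap2, which pair to form the peptide transporter, were at 1116 and 1094 in WT against 938 and 1229.5 in EpiKO and at 1346 and 1209.6 in WT against 1382 and 1505 in EpiKO, and Tapbp, tapasin, at 3876 and 4316 in WT against 3460.0 and 3900.3 in EpiKO. Their log2 fold changes were -0.042, 0.18 and -0.15, and among them only Tap2 had groups that did not overlap. Without EpiKO replicate 1 the value for Tap1 was 0.15. Tap1 and Psmb9 share exon bases on opposite strands, and reads there cannot be told apart where strand was not used in counting. Erap1, the trimming peptidase, was at 1795 and 1919 in WT against 2295 and 2043 in EpiKO, with a log2 fold change of 0.22 (SE 0.116), with EpiKO above WT. Nlrc5, the class I counterpart of Ciita, was at 380.2 and 409 in WT against 506 and 501 in EpiKO and so higher in both EpiKO libraries (log2 fold change 0.35, SE 0.120, limma adjusted p = 0.258). Its sign was opposite to that of H2-K1, H2-D1 and H2-Q4. In all, 4 class I members had EpiKO above WT, 5 had EpiKO below and 9 overlapped, beside 23.3% and 23.8% of all tested genes that did not overlap in the 2 directions.

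Helpers of the pathway outside the member list had no call by limma either: 0 of 10 tested class II accessory genes and 0 of 12 class I loading genes, beside 0.947% of all tested genes. At an unadjusted p under 0.05 by limma there was 1 of the former, Ctsd, and 0 of the latter, beside 15.6% of all tested genes. The calls were 0 and 0 by edgeR and 1 (Ctsd) and 0 by DESeq2, beside 0.963% and 6.85% of all tested genes. Ctss, cathepsin S, which trims the invariant chain, was at 72994 and 58213 in WT against 64650.4 and 65386 in EpiKO, so it did not follow Cd74. Ctsd, the endosomal protease cathepsin D, was at 36477 and 37340.0 in WT against 55413 and 54235 in EpiKO (log2 fold change 0.57, limma adjusted p = 0.135). March1 and March8, ubiquitin ligases that remove class II from the surface, had log2 fold changes of 0.15 and 0.22. Cd83, which protects class II from that removal, was at 22297 and 12752 in WT against 9214 and 13896 in EpiKO (log2 fold change -0.58). Among the loading genes Sec61a1, the translocon channel, was at 3686 and 3682 in WT against 4240.5 and 4391 in EpiKO, and the chaperone genes Calr, Canx and Pdia3 had log2 fold changes of 0.065, 0.046 and 0.11.

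Interferon signals are a main inducer of both classes. Of 19 genes of the interferon-gamma receptor, its kinases and the promoter-bound factors, 0 were called by limma, edgeR or DESeq2. The shares over all tested genes were 0.947%, 0.963% and 6.85%. At an unadjusted p under 0.05 by limma there were 2, Rela and Irf2, beside 15.6% of all tested genes. Rela, the NF-kappaB subunit p65, was at 2301 and 2186 in WT against 1523 and 1753 in EpiKO (log2 fold change -0.46, limma adjusted p = 0.165), and Irf2 had a log2 fold change of 0.30. Irf1, an interferon-induced activator of class I genes, was at 1637 and 1290.3 in WT against 1000.1 and 1448 in EpiKO. Interferon-stimulated genes outside antigen presentation, 20 tested, had 0 calls by limma or edgeR and 1 by DESeq2 (Cxcl10), beside 0.947%, 0.963% and 6.85% of all tested genes. At an unadjusted p under 0.05 by limma there were 6, beside 15.6% of all tested genes. The log2 fold change was negative in 17 of the 20, with a median of -0.40, beside 50.3% negative over all tested genes. Cxcl10, a chemokine, was at 633 and 1027 in WT against 226 and 357 in EpiKO (log2 fold change -1.50). Of the 20 interferon-stimulated genes 0 had both within-group ratios at or above 1.5, beside 3.3% of all tested genes. Their median ratio was 0.777 for WT replicate 1 over replicate 2 and 1.61 for EpiKO replicate 2 over replicate 1. Over the class II members these medians were 2.15 and 1.46, so the lists differed in direction within WT and not within EpiKO.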

How the data were processed

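Poly-A RNA libraries were made with the Illumina TruSeq RNA kit, per the labels' protocols. The tools were STAR 2.5.2b, featureCounts 1.5.0-p3, bcl2fastq 2.17 and, without a version, DESeq2, on mm10, per the submitters' processing notes. The sources used here do not give the annotation, the strand setting or the treatment of reads with several alignments. The deposited signal is a normalised read count. Its values, 100% of them whole multiples of 1 read per library (tolerance 1e-06), show that each library was scaled by the authors with a single factor, and dividing by it gave back the reads.

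Values were tested as log2(value + 1) for genes at 10 or more in at least 2 libraries, with limma 3.58.1 in R 4.3.3 (trend, robust, Benjamini-Hochberg over 12463 genes, two-sided, checked on simulated data). Standard errors and 95% intervals are moderated. Fold changes on this scale understate those of low genes. Intervals from 2 libraries a group rest on the spread shared across genes. edgeR 4.0.16 and DESeq2 1.42.0 were run on the recovered reads. No set test was made.

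Members and lists were chosen with earlier results of these data known. Every member is named, with up to 4 genes of smallest p of each pathway list and up to 3 most abundant of each cell type list; the other genes named from these lists were chosen after their values were seen. Of 208 list entries 2 were found under a synonym and 3 were not found. Exon lengths, positions and shared 50-base words are from GENCODE M21 (mm10), promoters from RefSeq (GRCm38.p6). Of the kept members 15 share exon bases with a gene on the other strand. Some genes of these lists enter the counts and sums and are not reported here by name.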

Additional observations from a re-analysis of the deposited data

How the results depend on the processing

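The count of all called genes, 118 by limma, was 31 without the trend, 854 by DESeq2, 428 at a threshold of 0.1, and 0 to 4 when 1 library was left out. For class II the count stayed at 0 under all 14 alternatives, and for class I it was 2 by DESeq2 (H2-K1 and H2-D1) and 0 under the other 13. The class I median log2 fold change ran from -0.17 to 0.050 and the class II median from -0.28 to 0.35 when 1 library was left out. The sign of 17 members, 11 of class II and 6 of class I, depended on which library was left out. In class II the log2 fold change then ranged over -1.24 to 0.35 for H2-Aa, -1.22 to 0.36 for H2-Ab1, -1.35 to 0.30 for H2-Eb1, -0.99 to 0.46 for Cd74, -0.17 to 1.03 for H2-DMb1, -0.17 to 1.20 for H2-DMb2, -0.22 to 0.37 for H2-Oa, -1.50 to 0.36 for H2-Ob, -0.21 to 1.03 for Ciita, -0.13 to 0.34 for Rfx5 and -0.21 to 0.13 for Rfxank. In class I it ranged over -0.21 to 0.077 for H2-M3, -0.39 to 0.024 for H2-T23, -0.24 to 0.15 for Tap1, -0.26 to 0.12 for Psmb9, -0.019 to 0.058 for Psmb10 and -0.053 to 0.20 for Psme1. The single remaining library of a group took its spread from the other group, and 0 member fits passed the threshold. Other settings turned 2 signs: H2-Oa was at -0.072 with quantile normalization and Psmb10 at -0.0087 with equal library totals. H2-Oa gave no value with the filter at 50. The ratio of H2-Oa to H2-DMa stayed lower in EpiKO, at a log2 difference of -0.83 to -0.29, and that of H2-Ob to H2-DMb1 at -1.47 to -0.53. No paired analysis was possible because the labels give no replicate numbers. With 2 libraries a group, only differences well above the spread between libraries can be called.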

Other observations

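Some genes outside antigen presentation differed within each group in the same direction as Cd74 and the class II chains. Both WT replicate 1 over replicate 2 and EpiKO replicate 2 over replicate 1 were at least 2 in 124 tested genes, 0.995% of those tested, among them the members Cd74, H2-Aa, H2-Ab1 and H2-Ob. This threshold, the direction of the ratios and these genes were chosen after the values were seen. Of the non-members the most abundant was Vcam1, an adhesion molecule, at 4801 and 1679 in WT and 1008 and 5266 in EpiKO. Next came Ccl8, a chemokine, at 4049.8 and 1437 against 1045 and 3494. The matrix metalloprotease gene Mmp13 was at 1521 and 356 against 783 and 1899.6, and the growth factor gene Igf1 at 825 and 354 against 255 and 817. Krt14 was the tenth most abundant of them, from WT replicate 1 almost alone. None of these 5 genes was called between EpiKO and WT by limma, where adjusted p lay between 0.409 and 0.917, while DESeq2 gave Krt14 an adjusted p of 0.0418.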
